A study of Mus musculus with 16 samples.

Results

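The genes described here carry out autophagy and lysosomal degradation. They were chosen by name as 42 genes, 19 of the autophagosome and 23 of the lysosome, and each was read from 1 probe set, the brightest on average over the 16 arrays among those the platform annotation gives to that gene alone. A probe set is the group of short probes that reads one transcript. Of the 42, 39 were found among the 17097 genes tested, 17 of the autophagosome and 22 of the lysosome. Map1lc3b and Cd63 had no matched probe set, and the probe set of Sqstm1 is shared with a second gene, so these 3 are not analysed here. The samples were cardiomyocytes of adult mice with 1 array per mouse, from 4 GPER KO and 4 intact females and from 4 GPER KO and 4 intact males. GPER is the G protein-coupled estrogen receptor. In the KO mice its gene was deleted in cardiomyocytes only, and the intact mice carried a wild type receptor. The labels give an age of 15 weeks for every mouse, while the methods give an older age at cell isolation. The Cre driver is not given in the sources used here. Ventricular cells were released by collagenase, strained and spun at low speed, so they were enriched for cardiomyocytes and not sorted.

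Autophagy wraps a portion of cytoplasm or a damaged organelle in a double membrane, the autophagosome, and delivers it to the lysosome, an acidic compartment whose enzymes degrade the cargo. Kinase and lipid complexes start the membrane, a conjugation system attaches proteins of the Atg8 family to it, and these proteins hold cargo receptors and help the vesicle mature. The lysosome needs a proton pump for its acid pH, proteases and glycosidases for the breakdown, and membrane proteins that protect it and carry products and ions. Adult cardiomyocytes rarely divide and depend on this turnover, and loss of Lamp2 or of the glycosidases Gaa and Gla in humans causes storage diseases that affect the heart. The same genes are used by macrophages, which are rich in lysosomes.

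Some lysosomal genes carry near their start the motif bound by the transcription factor TFEB, whose centre is CACGTG. In windows of 300 bases around the start (250 before, 50 after) from RefSeq GRCm38.p6, CACGTG, which reads the same on both strands, was present in 11 of the 19 lysosome members with a window (57.895%), in 3 of the 14 autophagosome members with a window (21.429%), and in 1389 of the 13605 tested genes with a window (10.209%). In 2 wider lists of the same pathways, described further on, the share was lower, at 12 of 49 lysosome genes (24.49%) and 4 of 37 autophagy genes (10.811%). The longer form TCACGTGA, which contains CACGTG, was found in 6 lysosome members, in 1 autophagosome member and in 1.669% of the tested genes. The full form of the motif, longer still, was found in 0 of 19 lysosome and 0 of 14 autophagosome members with a window. It was found in 2 of 49 wider lysosome genes, in 0 of 37 wider autophagy genes and in 0.566% of the tested genes. The higher shares among the members thus hold for the shorter forms only. The 120 bases before the start are shown for Lamp1, with most copies of the motif among the members, for Mcoln1, the lysosomal calcium channel, for the proteases Ctsa and Lgmn, and for Ctsz and Gabarap, the members called in males, whose windows hold no copy. They are written 5′ to 3′ on the strand of the gene, in lower case with CACGTG in capitals. Their positions are chr8:13159041-13159160 (plus strand) for Lamp1, chr8:3500399-3500518 (plus) for Mcoln1, chr2:164833653-164833772 (plus) for Ctsa, chr12:102439093-102439212 (minus) for Lgmn, chr2:174439040-174439159 (minus) for Ctsz and chr11:69991250-69991369 (plus) for Gabarap.
Lamp1: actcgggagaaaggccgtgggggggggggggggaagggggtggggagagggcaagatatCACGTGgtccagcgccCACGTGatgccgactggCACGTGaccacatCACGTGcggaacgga
Mcoln1: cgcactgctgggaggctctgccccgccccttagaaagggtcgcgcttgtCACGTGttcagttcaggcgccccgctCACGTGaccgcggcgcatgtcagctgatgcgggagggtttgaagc
Ctsa: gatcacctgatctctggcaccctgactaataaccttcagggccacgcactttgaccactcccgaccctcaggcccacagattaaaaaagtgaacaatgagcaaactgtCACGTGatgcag
Lgmn: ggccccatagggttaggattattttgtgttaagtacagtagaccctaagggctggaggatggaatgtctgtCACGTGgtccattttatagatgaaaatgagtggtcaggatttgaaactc
Ctsz: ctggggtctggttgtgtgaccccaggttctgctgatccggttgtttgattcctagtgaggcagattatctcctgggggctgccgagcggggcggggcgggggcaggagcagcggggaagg
Gabarap: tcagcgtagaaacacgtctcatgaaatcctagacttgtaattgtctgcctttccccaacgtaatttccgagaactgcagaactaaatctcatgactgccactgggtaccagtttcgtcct
Lamp1 holds 4 copies and Mcoln1 holds 2. Ctsa and Lgmn hold 1 copy each in these 120 bases, Ctsa in the second of its 2 windows, where another copy lies past the start. A match of letters is not a measured binding site.

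Before the results, the arrays were set against their labels. Gper1 has 1 probe set, which lies low on the array, with log2 signals of 2.64 to 3.11 over all 16 arrays. Its mean was 2.79 ± 0.13 in female GPER KO and 2.87 ± 0.16 in female intact cells, and 2.78 ± 0.07 in male GPER KO and 2.77 ± 0.12 in male intact cells (SD, n = 4 each). The sources used here do not say whether the deletion removes the stretch that this probe set reads, so it does not check the genotype labels. The sex labels matched Xist and Eif2s3y on all 16 arrays. The mean of the 8 measured cardiomyocyte markers lay near the top of the scale on every array, at 12.26 to 12.32 in female GPER KO and in female intact cells. In males it was 12.27 to 12.31 in GPER KO cells and 12.33 to 12.36 in intact cells, without overlap, with no single marker called. The median log2 difference of the 8 markers in males, GPER KO minus intact, was -0.007. Of the 8, 3 lay above 0 and 5 below, the lowest at -0.279. Macrophage markers were higher in GPER KO cells, as given below beside the lysosome genes, and all 12 endothelial markers were lower, with median log2 differences of -0.32 in females and -0.33 in males and none called. Female intact mice 421 and 422 stood apart from the other 14 arrays. Both were below all 14 others in 4 of the 39 members (Ulk2, Fundc1, Lamp2 and Atp6v1a) and in 4.14% of all genes. They were both above all 14 others in 0 of the 39 members and in 4.76% of all genes.

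Differences below are log2 GPER KO minus intact, so 1 is a doubling, and SE is the standard error from limma. A gene was called at an adjusted p under 0.05 by the Benjamini-Hochberg method over all 17097 genes. In males, 29 of the 39 members lay above 0, where 56.5% of all genes did, and 2 were called, both higher (Gabarap and Ctsz). Over all genes 0.62% were called, 0.509% higher. At an unadjusted p under 0.05, 11 members were higher and 0 lower in males, against 7.05% and 3.06% of all genes, or 10.1% in either direction. The lysosome members gave most of this shift. Of these, 19 of 22 lay above 0 in males, with a median difference of 0.147, while 10 of 17 autophagosome members did, with a median of 0.039. The median over all genes was 0.015. In these same male arrays the mean of the cardiomyocyte markers was lower in GPER KO than in intact cells, 12.29 against 12.34. The median difference of these markers was near 0, at -0.007, and the lowest was -0.279. Their part in the result was not tested. With 1 male array left out at a time, the lysosome median was 0.098 to 0.213 and the autophagosome median 0 to 0.08. In 9 members all 4 male GPER KO values exceeded all 4 male intact values (Becn1, Gabarap, Ctsa, Ctsh, Ctsz, Hexa, Npc2, Grn and Atp6v1h), compared with 4.24% of all genes, and in no member did they all lie below, compared with 1.97%.

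In females no member was called by limma, where 0.281% of all genes were called. At an unadjusted p under 0.05, 4 members were higher and 2 lower, against 5.05% and 7.53% of all genes. The median difference was 0.053 over the lysosome members, 14 of 22 above 0, and -0.007 over the autophagosome members, 7 of 17 above 0. Over all genes it was -0.021, with 41.2% above 0. With 1 female array left out at a time, the autophagosome median ran from -0.037 to 0.009 and so had no settled sign, and the lysosome median ran from 0.024 to 0.091. The GPER KO and intact values did not overlap for Lamp2 and Ctsz, which were higher, and for Pink1 and Atg16l1, which were lower. Such separation was seen in 1.95% of all genes upward and 3.73% downward.

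Averaged over both sexes, 27 of the 39 members lay above 0, where 49.1% of all genes did. By limma 2 members were called higher, Ctsz and Atp6v1h, and none lower. Over all genes 1.36% were called, 0.825% higher and 0.538% lower. At an unadjusted p under 0.05, 9 members were higher and 1 lower, against 5.9% and 5.77% of all genes. Of the 22 lysosome members, 13 lay above 0 in both sexes and 2 lay below 0 in both. Among the 17 autophagosome members the same counts were 3 and 3. Over all genes, 22.5% lay above 0 in both sexes and 24.8% below 0 in both. The sexes share no animals.

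**Figure D1:**
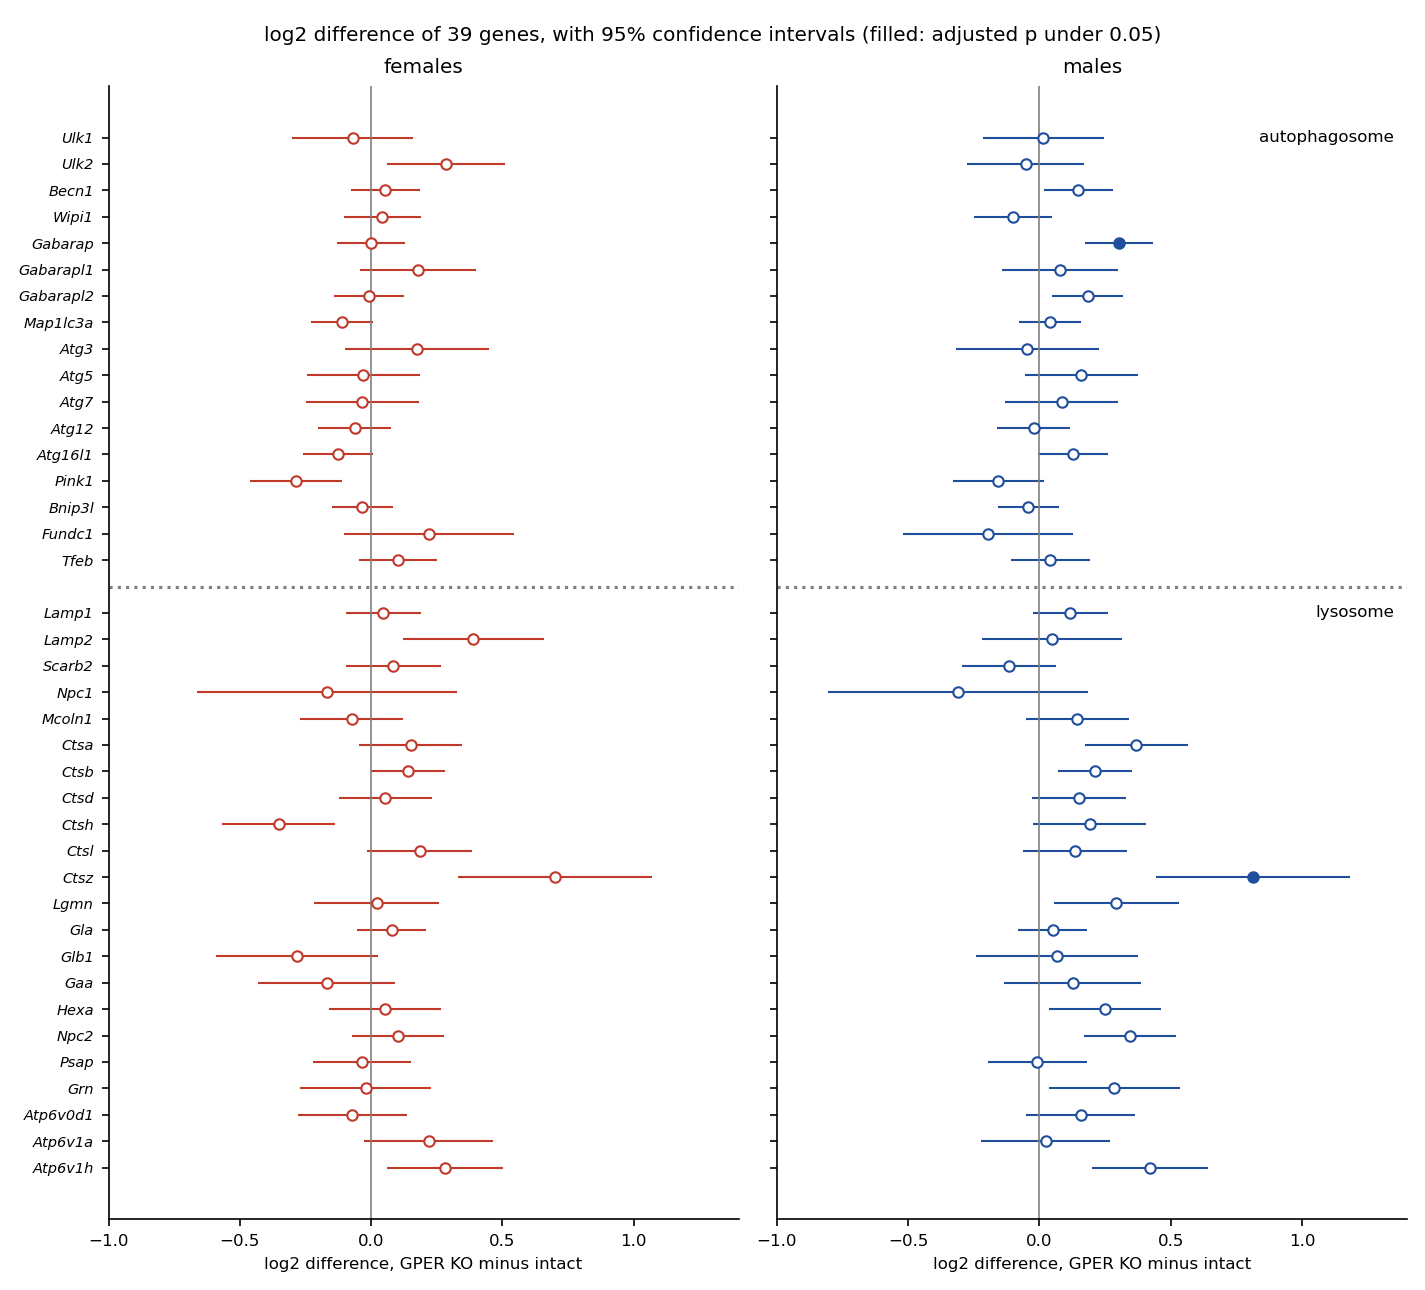
Log2 difference between GPER KO and intact cells for the 39 measured members (rows, grouped by role), in females (left) and males (right), with points for the differences, bars for their 95% confidence intervals from limma and filled points for an adjusted p under 0.05. Gabarap and Ctsz in males are the filled points, and the 7 proteases lie above 0 in males.

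Among the proteases, the largest lysosome group, 3 of 7 were higher without overlap in males. The same held for 2 of 3 lumenal cofactors, 1 of 3 proton pump subunits, 1 of 4 glycosidases and 0 of 5 membrane proteins, and for 4.24% of all genes. All 7 proteases lay above 0 in males, with a median of 0.211, and 6 of 7 in females, with a median of 0.141. The mean of the 7 was 8.46 to 8.63 in male GPER KO cells and 8.11 to 8.30 in male intact cells, without overlap. In females it was 8.16 to 8.42 in GPER KO cells and 8.01 to 8.29 in intact cells, with overlap.

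Ctsz encodes cathepsin Z, a carboxypeptidase of the lysosome (chr2:174427494-174439039). Its log2 signals were 6.26, 6.30, 6.33 and 6.02 in male GPER KO cells, against 5.02, 5.53, 5.36 and 5.74 in male intact cells. In females they were 5.55, 5.68, 5.98 and 5.61 in GPER KO cells, against 4.63, 5.26, 5.44 and 4.70 in intact cells. Every GPER KO value exceeded every intact value of the same sex, and Ctsz was the sole member for which this held in both sexes, as it did upward for 0.38% of all genes. The difference in males was 0.81 (SE 0.17, 1.76-fold, limma adjusted p = 0.0439). In females it was 0.70 (SE 0.17, 1.62-fold, adjusted p = 0.135), and over both sexes it was 0.76 (SE 0.12, 1.69-fold, adjusted p = 0.00372). Its 3 probe sets gave differences of 0.48 to 0.72 in females and 0.69 to 0.84 in males. The call over both sexes held in all 24 alternatives (adjusted p 0.000539 to 0.0283). The call in males did not hold in 8 of 15, and was lost without GPER KO mouse 431, 432, 444 or 451 or intact mouse 430, 433 or 452, each in turn (adjusted p 0.0531 to 0.149, difference 0.68 to 0.88). In females Ctsz was called when intact mice 421 and 422 were left out together, a choice made after seeing the data (1.04, adjusted p = 0.0284, range 0.0284 to 0.282 over 16 alternatives).

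Ctsa, the protective protein that also stabilises lysosomal glycosidases, had signals of 8.003, 8.185, 7.895 and 8.242 in male GPER KO cells, against 7.635, 7.805, 7.745 and 7.663 in male intact cells. The male groups did not overlap, but the difference of 0.37 (SE 0.09) missed the threshold (adjusted p = 0.101). In females the values were 7.85, 7.78, 8.17 and 7.96 in GPER KO cells, against 7.73, 7.91, 7.88 and 7.64 in intact cells, and overlapped, with a difference of 0.15. Over both sexes the difference was 0.26 (SE 0.07, adjusted p = 0.0664, range 0.0384 to 0.131 over 24 alternatives), and it was called when male GPER KO mouse 444 was left out (0.29, adjusted p = 0.0384). The second, dimmer Ctsa probe set gave -0.001 in females and 0.026 in males.

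Ctsb and Ctsl are abundant cysteine endopeptidases, and neither was called. Ctsb differed by 0.21 in males (10.12 to 10.41 in GPER KO cells, against 9.98 to 10.13 in intact cells) and by 0.14 in females. Of its 4 probe sets, 3 were above 0 in males, over a range of -0.07 to 0.27, and 2 in females, over a range of -0.18 to 0.15. Ctsl differed by 0.14 in males and 0.18 in females, and its second, dimmer probe set by -0.18 and 0.09. The aspartic protease Ctsd differed by 0.15 in males and 0.05 in females, and the asparaginyl endopeptidase Lgmn by 0.29 and 0.022.

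Ctsh, cathepsin H, an aminopeptidase (chr9:90054267-90076095), lay on opposite sides of 0 in the sexes. In males the signals were 7.29, 7.25, 7.17 and 7.23 in GPER KO cells, against 7.07, 7.02, 6.95 and 7.12 in intact cells, without overlap (difference 0.19, SE 0.10, adjusted p = 0.567). In females they were 6.68, 7.04, 7.02 and 7.04 in GPER KO cells, against 7.45, 7.43, 7.35 and 6.95 in intact cells. Intact mouse 425 alone overlapped the GPER KO values there. The female difference was -0.35 (SE 0.10, adjusted p = 0.191), and without intact mouse 425 it was -0.47 and called (adjusted p = 0.0133, range 0.0133 to 0.78 over 16 alternatives). With 1 female array left out at a time, the difference ran from -0.466 to -0.262, with adjusted p-values up to 0.41. The genotype effect differed between males and females by 0.54 (SE 0.14, unadjusted p from limma 0.0016), the smallest p among the members, but its adjusted p was 0.426.

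**Figure D2:**
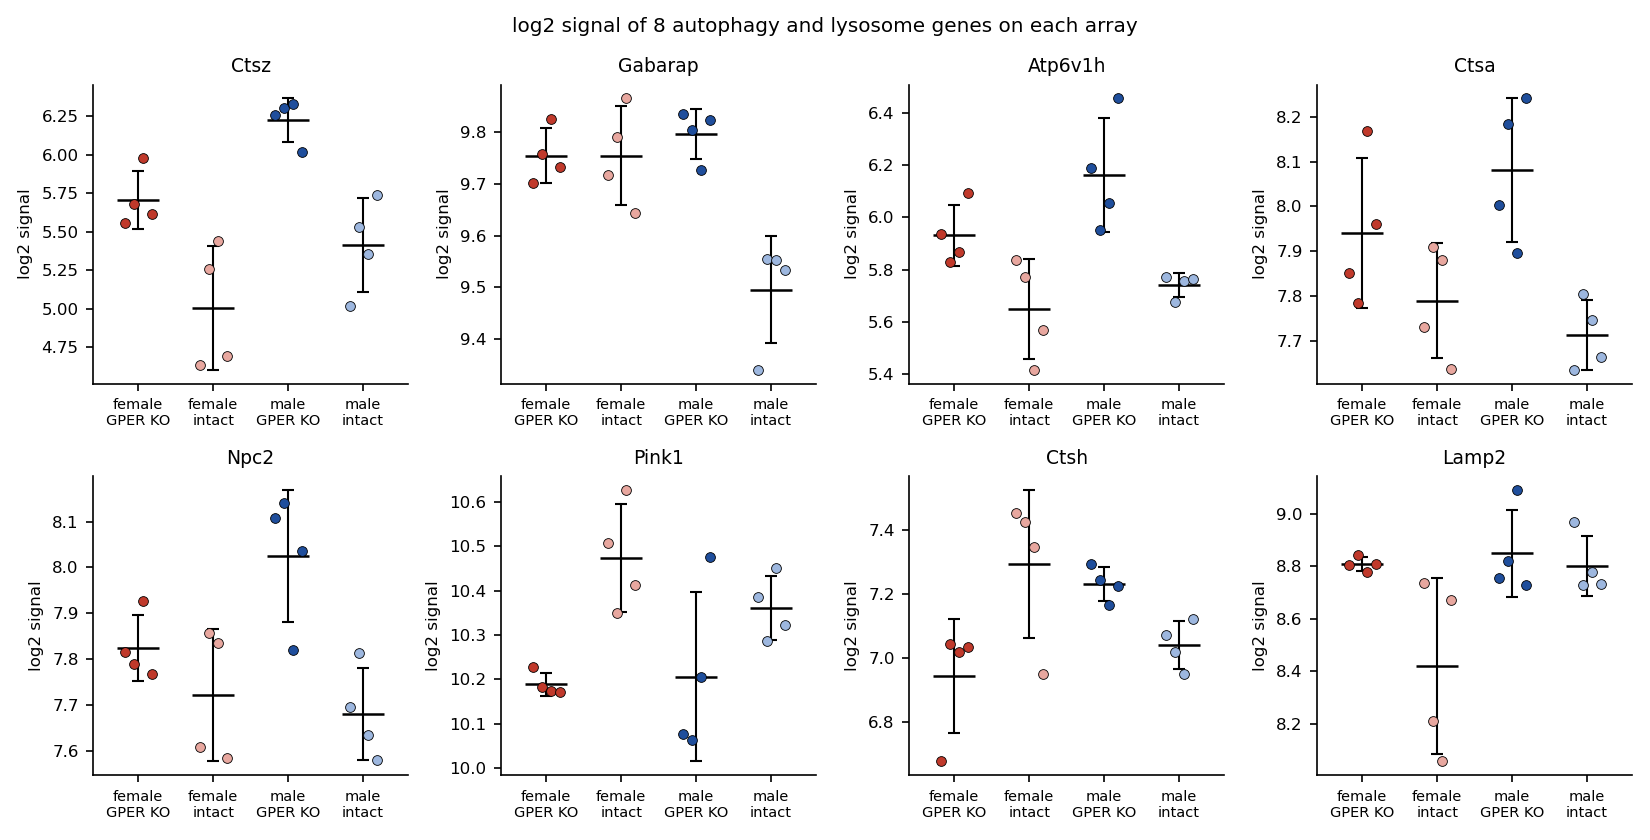
Log2 signal on each array for 8 of the members, with GPER KO left of intact in each gene, first for females and then for males (points are single mice, lines group means and bars 1 SD, n = 4). Ctsz is higher in GPER KO cells of both sexes without overlap, and Gabarap is lower in male intact cells than in each of the other 3 groups.

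Among the 3 subunits of the proton pump, Atp6v1h, subunit H of the V1 sector (chr1:5082978-5163213), was called over both sexes. Its signals were 6.19, 5.95, 6.05 and 6.46 in male GPER KO cells, against 5.77, 5.67, 5.76 and 5.76 in male intact cells. In females they were 5.94, 5.83, 5.87 and 6.09 in GPER KO cells, against 5.84, 5.77, 5.42 and 5.57 in intact cells. The male groups did not overlap, and in females intact mouse 418 (5.84) lay just above the lowest GPER KO value. The difference over both sexes was 0.35 (SE 0.07, 1.28-fold, adjusted p = 0.0231). In males it was 0.42 (SE 0.10, adjusted p = 0.0931) and in females 0.28 (SE 0.10, adjusted p = 0.275). The call over both sexes was lost in 3 of 24 alternatives, without female GPER KO mouse 427 (adjusted p = 0.0558), without male intact mouse 433 (0.0514) and without female intact mice 421 and 422 together (0.0608), and the lowest adjusted p over the alternatives was 0.0146. The catalytic subunit Atp6v1a differed by 0.024 in males and 0.22 in females, and Atp6v0d1, of the membrane sector, by 0.16 and -0.07, with no call.

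Of the lumenal cofactors, Npc2, which carries cholesterol out of the lysosome with Npc1, had signals of 8.11, 8.14, 7.82 and 8.03 in male GPER KO cells, against 7.70, 7.81, 7.63 and 7.58 in male intact cells. The lowest GPER KO value lay just above the highest intact value, and the difference was 0.34 (SE 0.08, adjusted p = 0.0812). Leaving out male GPER KO mouse 444, the lowest of its group, gave 0.41 and a call (adjusted p = 0.0255, range 0.0211 to 0.395 over 15 alternatives). In females the values were 7.81, 7.79, 7.93 and 7.77 in GPER KO cells, against 7.61, 7.86, 7.83 and 7.58 in intact cells, with overlap (difference 0.10). Grn, progranulin, was 7.36 to 7.73 in male GPER KO cells and 7.15 to 7.34 in male intact cells, a difference of 0.29 (adjusted p = 0.393), and -0.02 in females. Psap, the precursor of the saposins that assist lipid breakdown, differed by -0.008 in males and -0.03 in females.

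The 4 glycosidases lay above 0 in males, with a median of 0.097, and 2 of 4 did in females. Hexa, a subunit of beta-hexosaminidase, was the sole one without overlap in males, at 8.40 to 8.71 in GPER KO cells and 8.05 to 8.36 in intact cells (0.25, adjusted p = 0.376). Glb1, beta-galactosidase, differed by 0.07 in males and -0.28 in females, and Gaa, acid alpha-glucosidase, by 0.13 and -0.17. Gla, alpha-galactosidase A, was near the bottom of the scale, at 2.64 to 3.01 on all arrays, so its differences of 0.05 and 0.08 say little about its level.

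Of the 5 measured membrane proteins, 3 lay above 0 in each sex and none was called. Lamp2, the membrane glycoprotein lost in Danon disease (chrX:38399647-38456460), had signals of 8.80, 8.84, 8.78 and 8.81 in female GPER KO cells, against 8.74, 8.21, 8.06 and 8.67 in female intact cells. In males it was 8.76, 8.82, 9.09 and 8.73 in GPER KO cells, against 8.97, 8.73, 8.78 and 8.73 in intact cells. The size of the female difference rested mainly on intact mice 421 and 422, the 2 lowest arrays of all. The female difference was 0.39 (SE 0.13, adjusted p = 0.224), and without those 2 mice it was 0.11 (adjusted p = 0.936, range 0.0789 to 0.936 over 16 alternatives). The male difference was 0.05 (95% interval -0.22 to 0.31). Lamp1 differed by 0.12 in males and 0.05 in females, Mcoln1 by 0.14 and -0.07, and Scarb2, the receptor that sorts glucocerebrosidase to lysosomes, by -0.12 and 0.08. Npc1, the membrane partner of Npc2, differed by -0.31 in males and -0.17 in females with SDs of 0.20 to 0.49 within the groups, and its adjusted p over both sexes was 0.68.

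On the autophagosome side, Gabarap was the sole member called. It encodes an Atg8 family protein that is attached to the autophagosome membrane (chr11:69991370-69994949), and it has 1 probe set. The signals were 9.84, 9.80, 9.73 and 9.82 in male GPER KO cells, against 9.34, 9.55, 9.55 and 9.53 in male intact cells. In females they were 9.70, 9.76, 9.83 and 9.73 in GPER KO cells, against 9.72, 9.79, 9.87 and 9.64 in intact cells. The male intact cells were the low group, and both female groups lay in the range of the male GPER KO cells or close to it. The male difference was 0.30 (SE 0.06, 95% interval 0.17 to 0.43, 1.23-fold, adjusted p = 0.0320), and the female difference was near 0 (95% interval -0.13 to 0.13). The genotype effect differed between males and females by 0.30 (SE 0.09, unadjusted p from limma 0.00309), with an adjusted p of 0.426. The male call did not hold in 8 of 15 alternatives (adjusted p 0.0156 to 0.11 over the 15). It was lost without GPER KO mouse 431, 432 or 451 or intact mouse 430, 433, 452 or 453, each in turn, with differences of 0.25 to 0.32 and adjusted p-values of 0.0527 to 0.11.

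The other Atg8 proteins were not called. Gabarapl2 was 8.24 to 8.47 in male GPER KO cells and 8.13 to 8.29 in male intact cells (0.18, adjusted p = 0.27), and differed by -0.007 in females. Gabarapl1 differed by 0.08 in males and 0.18 in females, and Map1lc3a by 0.04 and -0.11. All 4 measured members of the family thus lay above 0 in males, and 1 of 4 in females.

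Of the initiation genes, Becn1, a subunit of the lipid kinase complex that starts the membrane, was 8.08 to 8.15 in male GPER KO cells and 7.83 to 8.04 in male intact cells, without overlap (0.15, adjusted p = 0.405). It differed by 0.05 in females. The kinases Ulk1 and Ulk2 differed by 0.015 and -0.05 in males and by -0.07 and 0.29 in females, and Wipi1, which reads the lipid signal, by -0.10 in males and 0.04 in females. The second, dimmer Ulk1 probe set gave 0.27 in males and -0.12 in females. The 4 Ulk2 probe sets ran from -0.22 to 0.01 in males and from -0.05 to 0.34 in females. Of the 6 Wipi1 probe sets, all lay below 0 in males. In females 2 of the 6 lay above 0, over a range of -0.17 to 0.06. In the conjugation system, Atg3, Atg5, Atg7, Atg12 and Atg16l1 ranged from -0.05 to 0.16 in males and from -0.12 to 0.17 in females. Atg16l1, the scaffold that places the conjugation at the membrane, was 6.38, 6.35, 6.42 and 6.35 in female GPER KO cells, against 6.42, 6.54, 6.52 and 6.53 in female intact cells. That is a narrow separation (-0.12, SE 0.06, adjusted p = 0.429). In males Atg16l1 was 6.53, 6.62, 6.33 and 6.46 in GPER KO cells, against 6.24, 6.44, 6.34 and 6.41 in intact cells, with overlap and a difference of 0.13. Tfeb itself, the regulator of lysosomal genes, differed by 0.04 in males and 0.10 in females.

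The 3 measured genes for removal of mitochondria lay below 0 in males and 2 of 3 did so in females, and none was called. Pink1, the kinase that marks damaged mitochondria, had signals of 10.23, 10.18, 10.17 and 10.17 in female GPER KO cells, against 10.51, 10.35, 10.63 and 10.41 in female intact cells. In males they were 10.08, 10.06, 10.21 and 10.47 in GPER KO cells, against 10.39, 10.29, 10.45 and 10.32 in intact cells. The female groups did not overlap, and in males GPER KO mouse 451 (10.47) was the highest of the 8. The difference was -0.29 in females (SE 0.08, adjusted p = 0.191), -0.16 in males (adjusted p = 0.564) and -0.22 over both sexes (SE 0.06, adjusted p = 0.0808, range 0.00745 to 0.171 over 24 alternatives). Without male GPER KO mouse 451 the difference over both sexes was -0.27 and Pink1 was called (adjusted p = 0.00745). Its second probe set gave -0.27 in females and -0.15 in males. The mitophagy receptors Bnip3l and Fundc1 differed by -0.04 and -0.20 in males and by -0.03 and 0.22 in females.

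Whether the genotype effect differed between the sexes was tested directly. By limma 0 of the 39 members and 0 of all 17097 genes were called for the difference, males minus females. It lay above 0 for 26 of the 39 members, where 62.5% of all genes did. At an unadjusted p under 0.05, 4 members were higher in this difference and 1 was lower, against 6.83% and 4.14% of all genes. The smallest p-values belonged to Ctsh (0.54), Gabarap (0.30) and Atg16l1 (0.25), each with an adjusted p of 0.426. For Ctsz the difference was 0.11 (95% interval -0.41 to 0.64, adjusted p = 0.894).

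Among intact mice, males were compared with females. No member was called by limma, where 0.579% of all genes were, and at an unadjusted p under 0.05 8 members were higher and 4 lower in males, against 7.55% and 9.93% of all genes. The median difference was 0.122 over the autophagosome members and 0.003 over the lysosome members, against -0.022 over all genes. Neither median was stable. With 1 array left out at a time, the autophagosome median was 0.033 (without female intact mouse 422) to 0.107, and the lysosome median was -0.009 to 0.044. Without mice 421 and 422 together they were 0.02 and 0.112. The 2 groups did not overlap for 3 members higher in males (Wipi1, Atg12 and Ctsb) and 1 lower (Gabarap), against 3.05% and 5.39% of all genes. The direction depended on the probe set for Wipi1 (4 of 6 above 0, lowest -0.12) and Atg12 (2 of 3, lowest -0.18). All 4 probe sets of Ctsb lay above 0. Gabarap had signals in male intact cells of 9.34 to 9.55, against 9.64 to 9.87 in female intact cells, a difference of -0.26 (SE 0.06, adjusted p = 0.0616). Gabarapl2 differed by -0.18 and Ctsh by -0.25 in the same direction, both with overlap. Without female intact mouse 425, Gabarap (-0.30, adjusted p = 0.0334, range 0.0334 to 0.433 over 15 alternatives) and Ctsh (-0.37, adjusted p = 0.0354, range 0.0354 to 0.729) were called. In the other direction, Wipi1 was 8.55 to 8.66 in male intact cells and 8.27 to 8.51 in female intact cells (0.20, adjusted p = 0.156), Lamp2 differed by 0.38 and Atp6v1a by 0.29. The differences of Lamp2 and Atp6v1a without mice 421 and 422 were 0.10 each. These comparisons use the same intact arrays as the genotype comparisons above.

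Macrophage markers were higher in the GPER KO groups in which the lysosome members were higher. In bulk RNA, more cells of a type and more RNA per cell cannot be told apart. Of 18 macrophage markers, 18 lay above 0 in males, with a median difference of 0.548 and 4 called (Fcgr3, Tyrobp, Lyz2 and Mpeg1), and 15 lay above 0 in females, with a median of 0.275 and none called. Their mean was 4.62 to 5.26 in male GPER KO cells and 4.32 to 4.83 in male intact cells, and 4.45 to 4.72 in female GPER KO cells and 4.18 to 4.45 in female intact cells. Array signals have no true 0, so no marker could be read as absent. The mean of the 22 lysosome members was 7.60 to 7.79 in male GPER KO cells and 7.48 to 7.60 in male intact cells. In females it was 7.50 to 7.64 in GPER KO cells and 7.37 to 7.58 in intact cells. Over the 16 arrays, which fall into 4 groups, the lysosome mean and the macrophage mean had a Pearson r of 0.625 (permutation p = 0.00932). Their Spearman rho was 0.676 (permutation p = 0.00527). The pooled permutations, here and for Ctsz, moved arrays freely across the 4 groups. Their p-values thus include the differences between group means and do not measure a relation between mice within a group. Without the 2 arrays farthest from the median macrophage mean r was 0.716, but with group means removed it was -0.0409 (permutation p within groups 0.905). For Ctsz r was 0.902 (permutation p = 2e-05), or 0.898 without those 2 arrays, and rho was 0.938 (permutation p = 1e-05, the smallest that 100000 permutations can give). With group means removed r was 0.703 for Ctsz (permutation p within groups 0.00043). Permutation p-values, two-sided, were computed for these 2 relations only. Adjusted over both by Benjamini-Hochberg, the p-values for r were 0.00932 for the lysosome mean and 4e-05 for Ctsz. Those for rho were 0.00527 and 2e-05, and those within groups 0.905 and 0.00086. Without p-values, r was also computed for each of the 39 members and for other marker lists. Ctsz had the largest r of the 39, pooled and with group means removed, and its p-values are not adjusted over the 39. Of the 2 relations tested with group means removed, that of Ctsz was detected and that of the lysosome mean was not. Both were chosen with earlier results of these data known. Without a test, r with group means removed ran over the 39 members from -0.636 (Psap) to 0.703 (Ctsz). Pink1 was at -0.566 and Lgmn at 0.480, so members of both signs enter the list means. The pooled relation was not particular to the lysosome members. For the autophagosome mean r was 0.560 pooled and 0.113 with group means removed, without a test. The part of macrophage RNA in these results was not tested.

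Single arrays, chosen after their values were seen, show the spread within the male GPER KO group. Male GPER KO mouse 451 had the lowest macrophage mean of its group, 4.62, below male intact mouse 453 at 4.83, while its lysosome mean of 7.78 was the second highest of all 16 arrays. Its Ctsa (8.24) and Atp6v1h (6.46) were the highest of the male arrays, and its Ctsz (6.02) was the lowest of the male GPER KO group but above all male intact values. Male GPER KO mouse 444 had the highest macrophage mean, 5.26, and the lowest lysosome mean of its group, 7.60. The 2 mice also differed in other marker lists. Mouse 451 was the lowest male GPER KO array for the endothelial (5.89), fibroblast (5.07) and smooth muscle and pericyte (5.23) means. Mouse 444 was the highest male GPER KO array for these lists, at 6.46, 5.86 and 5.94. Without mouse 444 the difference of Npc2 in males and of Ctsa over both sexes was larger, as given above.

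**Figure D3:**
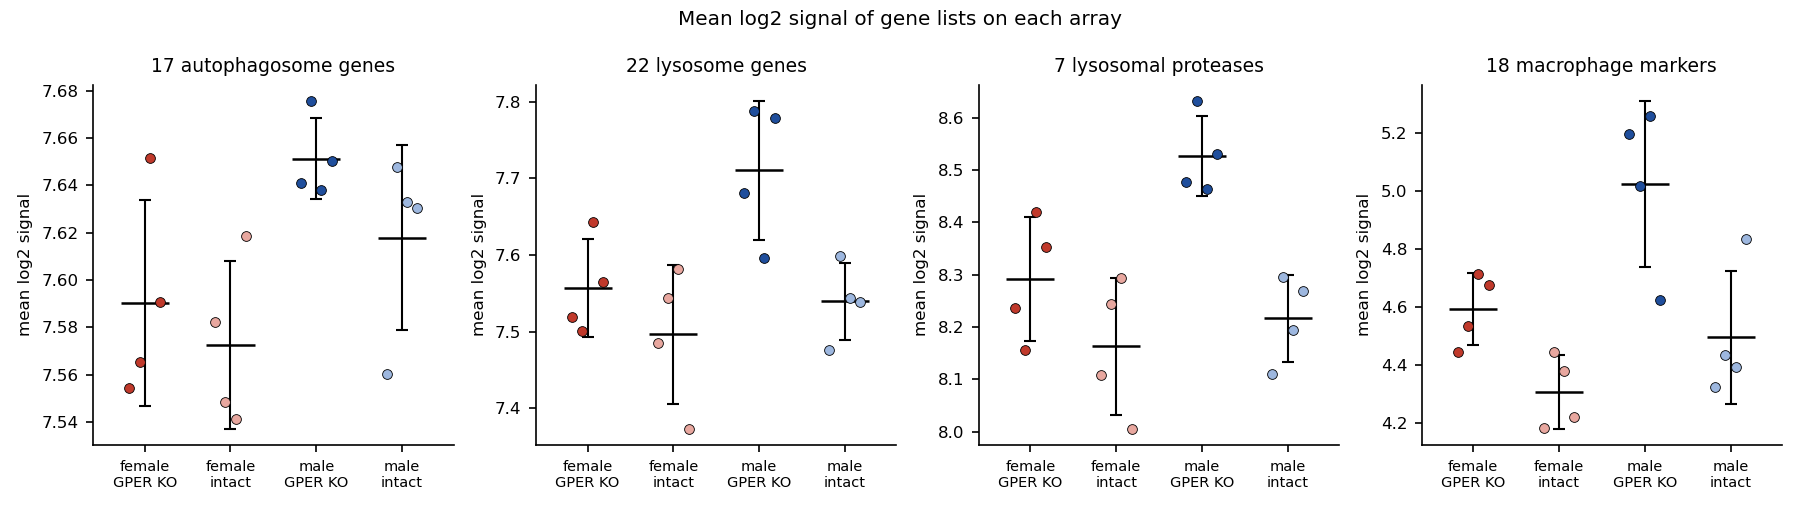
Mean log2 signal on each array over the 17 autophagosome members, the 22 lysosome members, the 7 proteases and the 18 macrophage markers, by group (points are mice, lines group means and bars 1 SD, n = 4 per group). The protease means of male GPER KO and male intact cells do not overlap, and the macrophage means are highest in male GPER KO cells.

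**Figure D4:**
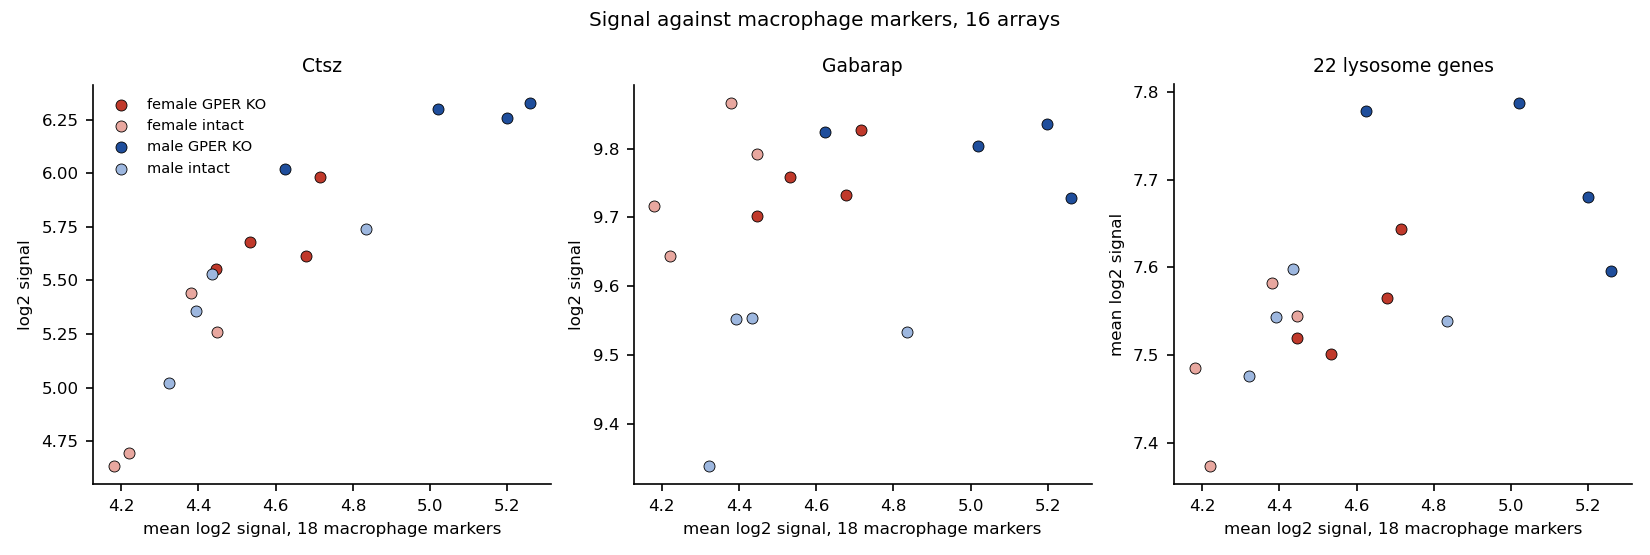
Log2 signal of Ctsz, of Gabarap and the mean of the 22 lysosome members (y axes) against the mean of the 18 macrophage markers (x axis) on the 16 arrays. Ctsz is highest on the arrays with the highest macrophage mean. Mouse 451, chosen after its values were seen, has a macrophage mean of 4.62 and a lysosome mean of 7.78.

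Beyond the members, 2 wider lists of the same pathways were read. Of 35 measured further autophagy genes, 16 lay above 0 in males and 9 in females, with medians of -0.007 and -0.075, where 56.5% and 41.2% of all genes lay above 0. None was called by limma in either sex or over both. At an unadjusted p under 0.05, 0 were higher and 2 lower in males, where 7.05% and 3.06% of all genes were, and 2 were higher and 1 lower in females, where 5.05% and 7.53% were. Of 55 measured further lysosome genes, 43 lay above 0 in males, with a median of 0.068, and 26 in females, with a median of -0.005. At an unadjusted p under 0.05, 9 of the 55 were higher and 0 lower in males, and 7 were higher and 0 lower in females. The sole one called for the genotype was Ctss, cathepsin S, a protease of antigen-presenting cells. Its signals were 6.71, 6.50, 6.90 and 5.55 in male GPER KO cells, against 4.82, 5.16, 4.81 and 5.64 in male intact cells. GPER KO mouse 451 (5.55) and intact mouse 453 (5.64) made these groups overlap. The male difference was 1.30 (SE 0.26, adjusted p = 0.0320), and over both sexes it was 0.98 (SE 0.19, adjusted p = 0.0120). Among intact mice, Ostm1 was called higher in males (0.36, adjusted p = 0.0490) and Lamtor2 lower (-0.33, adjusted p = 0.0480).

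The members with and without the CACGTG motif were set side by side. In males the 11 measured lysosome members with it, which include the dim Gla, all lay above 0, between 0.0239 and 0.3692, with a median of 0.1355, and none was called. Of the 7 measured lysosome members whose windows lack it, 5 lay above 0, with a median of 0.2489, and Ctsz was called. In females 7 of the 11 with the motif lay above 0, with a median of 0.046, and 5 of the 7 without it, with a median of 0.084, and none was called by limma. Ctsz, Npc2, Hexa and Grn, 4 of the 7 lysosome members without overlap in males, are in the set without the motif. No test was made between these sets.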

How the data were processed

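Total RNA of ventricular cardiomyocytes from 16 mice, 1 array per mouse, was hybridised to Affymetrix MG-430 PM arrays of the GeneAtlas system, which read the 3′ end of transcripts. The deposited values are log2 signals per probe set, made by the authors with RMA, and the submitters' processing notes also name Partek, with no version for either. RMA as usually run corrects background, applies quantile normalization and summarises probes, which brings the arrays to similar distributions (array medians 3.47 to 3.51) and can compress small differences of dim genes. No scanner signals were used here. With 4 arrays per group, their number limits the precision, and p-values reflect the spread between mice.

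Of 45141 probe sets, the platform annotation gave 28898 a single gene, and 28689 of these matched the RefSeq gene table of GRCm38.p6 through Entrez identifiers. The 551 annotated to several genes and the 15692 with no gene were not used. For the 7180 genes with several probe sets the one with the highest mean over 16 arrays was used. limma 3.58.1 in R 4.3.3 (lmFit, contrasts.fit, eBayes) was fitted with a mean for each of the 4 groups, using all arrays and unfiltered genes, and p-values were adjusted by Benjamini-Hochberg over 17097 genes. The procedure was tested on simulated data.

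Members and lists were chosen with earlier results of these data known. No list was therefore tested for a difference between groups, and lists are described by counts and medians. The correlation of the lysosome mean below does carry p-values, for a list chosen in this way. The lysosome mean and Ctsz were set against the macrophage mean by correlation over the arrays, pooled and with group means removed, with 100000 permutations each. Members given on every array are those called in a contrast or, where fewer than 3 were called in a direction, those with the smallest p up to 3, and the 3 smallest p-values for the difference between the sexes. Values in the other sex, the members whose groups did not overlap in males, and single mice were named after they were seen. Wipi1, Scarb2, Gabarapl2, Atp6v1a and Npc1 fall under this rule and are given in ranges or differences. From the wider lists, called genes were named.

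The alternatives were averaging the probe sets of a gene, testing every probe set on its own, dropping genes that did not exceed the 40 percentile of all signals on 4 or more arrays (leaving 12966 genes and 38 members, without Gla), a second quantile normalization, median centring of the arrays, weights for arrays, fits within 1 sex, a fit of genotype without sex, trend and robust settings of eBayes, and leaving out each array in turn. Leaving out female intact mice 421 and 422 together was chosen after seeing the data.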

Additional observations from a re-analysis of the deposited data

Results flagged for a closer look

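In 5 of the 64 groups of 4 arrays examined for the members and lists named above, 1 array lay far from the other 3. Chance gives this in about 1 of 20 groups. For Gabarap, male intact mouse 430 had a log2 signal of 9.34 and the others 9.534 to 9.554. Without it the difference between GPER KO and intact males was 0.25, with an adjusted p of 0.11 from limma. For Ctsh, female GPER KO mouse 417 was at 6.676 and the others at 7.019 to 7.043. With 1 female array left out at a time, the female Ctsh difference ran from -0.466 to -0.262. For Atp6v1h, male intact mouse 433 was at 5.675 and the others at 5.757 to 5.77, and without it the difference over both sexes had an adjusted p of 0.0514. For Atg16l1, female intact mouse 418 was at 6.422 and the others at 6.52 to 6.535. For Npc1, female intact mouse 425 was at 5.143 and the others at 6.063 to 6.159, the widest of these gaps.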

How the results depend on the processing

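The alternatives were followed for 27 single-gene differences, those of the members picked by the rule given above, and none changed sign. Single probe sets were not part of that check. Dimmer probe sets had the other sign for Scarb2 (0.016) and Npc2 (-0.035) in males and for Wipi1 between intact males and females (down to -0.12). Differences of other named genes were not followed. Of the list medians, 2 near 0 changed sign. The autophagosome median in females (-0.007) ran from -0.037 to 0.009 with 1 array left out at a time, and the lysosome median between intact males and females (0.003) ran from -0.009 to 0.044 and was -0.017 after a second quantile normalization. The counts of called members changed as follows. In females (0 in the fit reported), leaving out 1 array gave 0 to 1, where the 1 was Ctsh without intact mouse 425, and leaving out intact mice 421 and 422 together gave 1 (Ctsz). In males (2), centring each array on its median gave 1 (Gabarap), the male arrays alone gave 1 (Ctsz), array weights gave 4 (with Atp6v1h and Npc2), and leaving out 1 array gave 0 to 2. The count was 0 without GPER KO mouse 431, 432 or 451 or intact mouse 430, 433 or 452. Over both sexes (2), array weights gave 6, of which Pink1 was lower, every probe set on its own gave 4 (with Ctsb and Pink1), and leaving out 1 array gave 1 to 5, with 1 without female GPER KO mouse 427 or male intact mouse 433 and 5 without male GPER KO mouse 444. Between intact males and females (0), leaving out 1 array gave 0 to 2, where the 2 were Gabarap and Ctsh without female intact mouse 425. The median difference of the autophagosome members between intact males and females (0.122) was 0.033 to 0.107 with 1 array left out at a time, 0.026 with the probe sets of a gene averaged and 0.02 without mice 421 and 422. The cause of these changes was not tested. Among the single-gene values, 458 recomputed ones kept their side of the threshold, 12 passed it and 19 lost it. Counts over all genes moved too: 159 in females without intact mouse 425 and 10 without mice 421 and 422 together, against 48 in the fit reported, and 181 in males with array weights, against 106. No paired analysis was possible because animal numbers are unique to each mouse and no label ties animals across groups. Gla lay near the bottom of the scale, where differences cannot be read.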
